A study of Mus musculus with 11 samples.

Results

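The 9 genes described here encode enzymes and regulators that write or erase chemical marks on DNA and on the histones around which DNA is wound: Dnmt1, Dnmt3a, Tet1, Tet2, Tet3, Hdac2, Hdac4, Kdm6b and Prdm2. They were picked by name with earlier results of these data known, and were matched by symbol to 9 of the 53465 Ensembl genes in the count files. RNA was sequenced from GFP-labelled cells that were sorted out of the medial prefrontal cortex (mPFC) of adult male CRF1:GFP mice, a line in which GFP reports expression of the corticotropin-releasing factor receptor CRF1. Each library held the sorted cells of 1 mouse. Of the 11 mice, 6 were naïve and 5 were withdrawn. Withdrawn mice had breathed ethanol vapor intermittently for several weeks, with injections of ethanol and the alcohol dehydrogenase inhibitor pyrazole before each exposure, and were killed days into forced abstinence. Naïve mice received pyrazole in saline and breathed air in the same chambers, so pyrazole was common to both groups.

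Cytosine methylation at CpG dinucleotides is copied onto new DNA strands by Dnmt1 and laid down at new sites by Dnmt3a, and the Tet enzymes oxidize methylated cytosine as the first step of its removal. Histone deacetylases such as Hdac2 take acetyl groups off histone tails, which favours compact, less transcribed chromatin, and the demethylase Kdm6b removes a repressive methyl mark of histone H3 while Prdm2 belongs to a family of methyltransferase-like zinc finger proteins. Neurons no longer divide and yet keep high levels of several of these enzymes, and in brain tissue they are known for roles in memory, stress responses and the long-lasting effects of alcohol and other drugs.

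Levels are given as CPM, reads of a gene scaled to a common library size normalized by the TMM method. Glutamatergic and general neuronal markers were abundant in every mouse. The summed level of 5 neuronal genes was 7926 to 10641 CPM in naïve and 5153 to 8389 CPM in withdrawn mice, with all 5 genes lower in withdrawn mice and only Snap25 at an unadjusted p under 0.05 in edgeR. That of 5 glutamatergic genes was between 1323 and 3113 CPM. Crhr1, the gene of the sorted receptor, had a median of 92.2 CPM in naïve and 89.9 CPM in withdrawn mice, Slc17a7, the vesicular glutamate transporter of cortical excitatory neurons, 1423 and 1425 CPM, and Gad2, a marker of inhibitory neurons, 50.0 and 62.9 CPM. Libraries held 7351567 to 22244869 counts on genes, and 3 counts corresponded to 0.135 to 0.408 CPM, a floor that covers counting error only. Fibroblast markers moved with the groups: 7 genes summed to 0.0677 to 67.3 CPM in naïve and 17.8 to 1288 CPM in withdrawn mice, with only withdrawn mouse 2 inside the naïve range. Summed microglia markers were low, at 0 to 6.47 CPM in naïve and 6.87 to 17.5 CPM in withdrawn mice, and the 5 astrocyte markers summed to 9.41 to 153.4 CPM and 12.6 to 355.3 CPM. The ranges of the other lists overlapped, at 0.203 to 509.9 and 18.4 to 430.3 CPM for endothelial, 0.0677 to 164.6 and 11.3 to 170.3 CPM for pericyte, 108.5 to 246.4 and 86.8 to 228.8 CPM for oligodendrocyte, 0 to 14.9 and 7.64 to 26.7 CPM for oligodendrocyte precursor and 73.3 to 923.3 and 28.5 to 669.2 CPM for GABAergic markers. No marker was at 0 in a whole group. Naïve mouse 5 stood apart by its 15585 detected genes, the fewest of all mice, and by 5.77% of tallied reads outside exons, where the other mice had 13.3% to 48.1%. At the other end were withdrawn mice 4 and 2, with 48.1% and 39.6% outside exons and the fewest counts on genes, 7351567 and 8696939. The treatment recorded for each sample set the groups. For 3 withdrawn mice (3, 4 and 5) another label reads control and repeats the animal numbers of 3 naïve mice, and the design text gives 5 control and 6 ethanol animals. Values without these 3 mice are therefore given for several genes, from a fit that keeps withdrawn mice 1 and 2 alone in that group.

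The genes lie on GRCm38 as follows in the GENCODE annotation. Dnmt1 (ENSMUSG00000004099) spans chr9:20907209-20959888 on the minus strand and Dnmt3a (ENSMUSG00000020661) spans chr12:3806007-3914443 on the plus strand. Tet1 (ENSMUSG00000047146) is at chr10:62804570-62908996, Tet2 (ENSMUSG00000040943) at chr3:133463679-133545139 and Tet3 (ENSMUSG00000034832) at chr6:83362373-83459084, all on the minus strand. Hdac2 (ENSMUSG00000019777) is at chr10:36974544-37001889 on the plus strand and Hdac4 (ENSMUSG00000026313) at chr1:91928779-92195699 on the minus strand. Kdm6b (ENSMUSG00000018476) is at chr11:69398508-69413675 and Prdm2 (ENSMUSG00000057637) at chr4:143107391-143212995, both on the minus strand. Reads were counted over exons, and since whether strand was used in counting is not given in the sources used here, bases shared with a gene on the opposite strand make a count uncertain. Such bases made up 22.4% of the exonic length of Hdac4 (Gm26720, which had 0 counts in every mouse), 4.11% of Kdm6b (Kdm6bos), 0.799% of Dnmt3a (Dnmt3aos) and 0.255% of Tet2 (Gm42567). No other gene shared exon bases with the other 5. If strand was not used, reads on shared bases would be ambiguous and go to neither gene. The 0 counts of Gm26720 then do not show that no reads fell there, and the level of Hdac4 per kb could be too low.

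RefSeq on GRCm38.p6 gave 11 start windows for 7 of the 9 genes. Windows of 250 bases before the start are shown for Dnmt3a, the member with the smallest p below, for Hdac2, the most abundant one, and for Tet2, whose window was the richest in CpG, the dinucleotide that the Dnmt and Tet enzymes act on. These windows hold no annotated exon. They are written 5′ to 3′ on the strand of the gene, with each CpG in capitals.
Dnmt3a, chr12:3806730-3806979, plus strand: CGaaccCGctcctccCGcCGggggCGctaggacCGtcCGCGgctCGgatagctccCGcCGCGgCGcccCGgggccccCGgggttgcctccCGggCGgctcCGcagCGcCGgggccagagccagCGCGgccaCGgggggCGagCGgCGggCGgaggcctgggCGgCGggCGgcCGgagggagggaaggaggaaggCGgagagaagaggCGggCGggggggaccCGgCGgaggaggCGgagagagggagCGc
Hdac2, chr10:36974294-36974543, plus strand: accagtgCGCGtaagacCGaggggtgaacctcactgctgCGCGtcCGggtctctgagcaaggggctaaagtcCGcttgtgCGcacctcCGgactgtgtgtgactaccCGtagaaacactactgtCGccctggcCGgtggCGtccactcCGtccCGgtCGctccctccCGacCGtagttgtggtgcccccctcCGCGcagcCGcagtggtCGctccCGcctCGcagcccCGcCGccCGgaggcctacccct
Tet2, chr3:133544391-133544640, minus strand: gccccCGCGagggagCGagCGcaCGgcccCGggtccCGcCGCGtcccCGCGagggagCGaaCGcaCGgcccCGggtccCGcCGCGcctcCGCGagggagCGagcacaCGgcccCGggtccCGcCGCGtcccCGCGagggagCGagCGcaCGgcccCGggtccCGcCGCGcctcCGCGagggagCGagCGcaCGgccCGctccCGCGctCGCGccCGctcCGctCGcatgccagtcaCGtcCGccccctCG
The Tet2 window held 51 CpG, more than in 99.9% of 32841 RefSeq windows of the same length, and the run caCGgcccCGggtccCGcCGCG occurred in it 4 times. The Dnmt3a window held 38 CpG and the Hdac2 window 27, against a median of 6 over all windows, a value that every window of the 7 genes exceeded but 1 of Dnmt1. Dnmt1 has 3 RefSeq starts, whose windows held 26, 7 and 2 CpG. The deposited counts are per gene, so they do not tell which of these starts was used, and methylation was not measured in this series.

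Levels of different genes were compared as CPM per kb of exon. Hdac2, a class I deacetylase found in large corepressor complexes, was the most abundant of the 9 on this scale, with a median of 40.6 CPM per kb in naïve mice (range 31.8 to 49.1). Its lowest naïve mouse was above the highest naïve mouse of every other member. Dnmt1 followed at 8.36 CPM per kb (5.28 to 12.4) and Hdac4, a class IIa deacetylase that shuttles between cytoplasm and nucleus with neuronal activity, at 5.06 CPM per kb (3.29 to 8.72). Dnmt3a (3.67), Tet3 (3.66) and Tet2 (2.85) were close together, and Prdm2 (1.79), Kdm6b (0.973) and Tet1 (0.924) were lowest. From Dnmt1 down, the naïve ranges of neighbours in this order overlapped. On this scale, the order within a mouse was steadier than the ranges show for some pairs. Dnmt1 was above Hdac4 in 5 of 6 naïve mice and Hdac4 was above Dnmt3a in 6 of 6, while Dnmt3a was above Tet3 in 3 of 6. The order of Dnmt1 and Hdac4 depends on the length used. With the longest transcript as length their naïve medians were 10.5 and 9.87 CPM per kb, and Dnmt1 was the higher one in fewer mice.

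**Figure D1:**
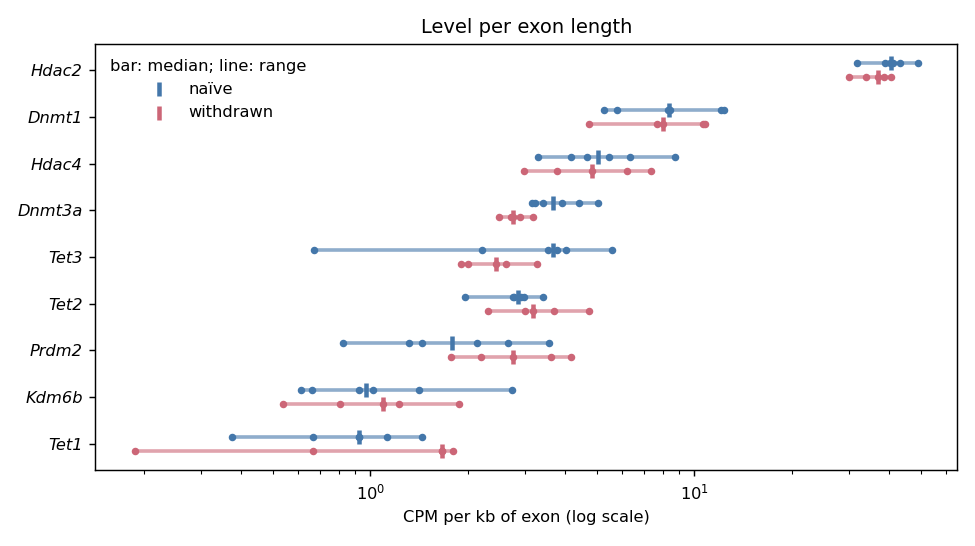
Level of each gene in CPM per kb of exon (log axis) in 6 naïve and 5 withdrawn mice, with a point per mouse, a line over the range and a bar at the median. Hdac2, at a median of 40.6 CPM per kb in naïve mice, lies to the right of all other genes, and the ranges from Dnmt1 to Tet1 overlap their neighbours.

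Withdrawn mice were then compared with naïve mice, the contrast the study was designed for, to ask whether transcripts of this machinery differ after chronic ethanol and abstinence. None of the 9 genes was called, that is, none had an adjusted p of at most 0.05 with a log2 fold change beyond 0.6 in edgeR's quasi-likelihood test, where 0.00585% of the 17093 genes tested were called. All 9 passed the filter on low counts. Their log2 fold changes (withdrawn over naïve) ran from -0.46 to 0.54 with a median of -0.11, beside a median of 0.021 over all genes tested, and 3 were above 0, as were 51.8% of all genes tested, and 6 below. At an unadjusted p under 0.05 there was 1 member, Dnmt3a, where 7.22% of all genes tested had such a p. DESeq2's Wald test called none of the 9 either, and 1.66% of the genes to which it gave an adjusted p, and Dnmt3a was again the member with an unadjusted p under 0.05, where 6.24% of genes had one. The groups overlapped for each of the 9 genes, as they did for all but 0.948% of genes tested, 0.69% with every withdrawn mouse higher and 0.257% with every one lower. A miss of the threshold does not show equal levels, so 95% intervals are given with each gene. In bulk libraries like these, fewer cells that express a gene and less RNA per cell cannot be told apart.

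**Figure D2:**
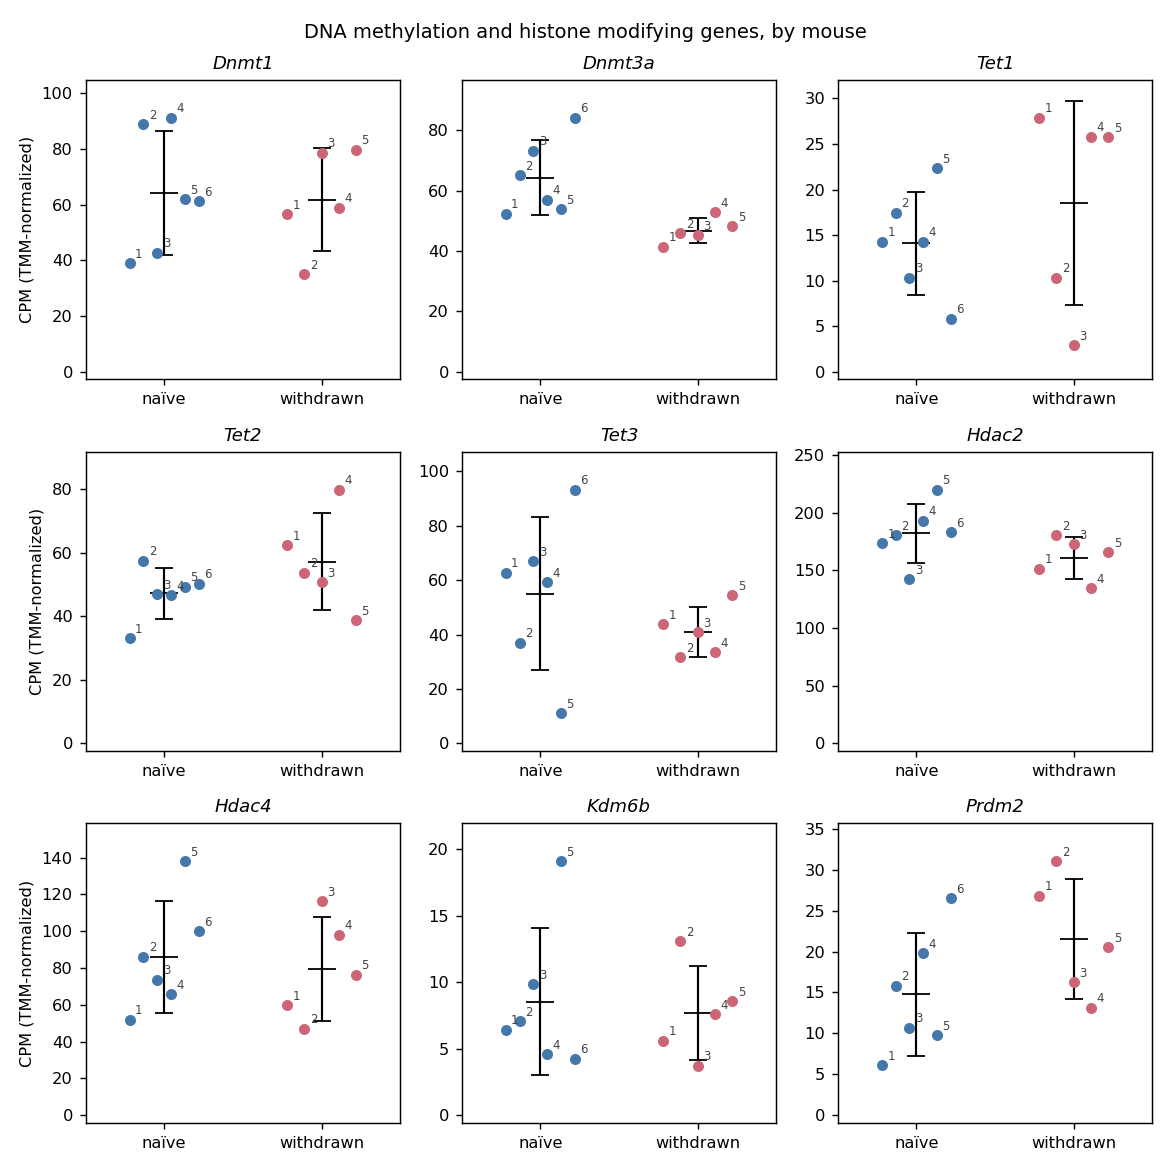
TMM-normalized CPM of the 9 genes, with a numbered point per mouse and the mean ± SD of each group in black (naïve n = 6, withdrawn n = 5). Groups overlap in every panel, and Dnmt3a, with withdrawn mice at 41.5 to 52.9 CPM and naïve mice at 52.4 to 84.2 CPM, comes closest to separation.

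Among the DNA methyltransferases, Dnmt3a had lower values in most withdrawn mice, short of the adjusted threshold, and the ranges of Dnmt1 largely overlapped. The 6 naïve mice ranged from 52.4 to 84.2 CPM for Dnmt3a, with a median of 61.1 CPM and a mean of 64.3 ± 12.5 CPM (SD). The 5 withdrawn mice had 41.5, 45.9, 45.2, 52.9 and 48.2 CPM, averaging 46.7 ± 4.19 CPM (SD). Every withdrawn mouse but mouse 4 was thus below every naïve mouse, and mouse 4 was above naïve mouse 1 by less than 1 CPM. The log2 fold change was -0.46 (standard error 0.18, 95% interval -0.85 to -0.075), with an unadjusted p of 0.0226 and an adjusted p of 0.547 in edgeR's quasi-likelihood test. The two-sided exact permutation test over the 462 splits of the mice gave p = 0.0108. Dnmt3a was below 0 under all 21 alternative settings, from -0.61 to -0.36, and past the adjusted threshold under 0 of them. Its unadjusted p was no longer under 0.05 in 4 of the 21, which were the fits without naïve mouse 6, without the 3 mice with conflicting labels, with the replicate number as a block and with at least 10 counts in every mouse. On the same scale the 5 neuronal markers ran from -0.41 (Snap25, a synaptic vesicle fusion protein) to -0.084 with a median of -0.19, the median of the glutamatergic markers was -0.075, and whether a lower share of neuronal RNA has a part in the Dnmt3a difference was not tested.

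Dnmt1, the maintenance enzyme, averaged 64.2 ± 22.2 CPM (SD) over the 6 naïve and 61.8 ± 18.4 CPM over the 5 withdrawn mice, with ranges of 39.0 to 91.3 and 35.0 to 79.7 CPM. Its log2 fold change was -0.054 (95% interval -0.64 to 0.54, adjusted p = 0.984 in edgeR), and it was -0.53 without the 3 mice with conflicting labels. Per kb of exon, Dnmt1 was above Dnmt3a in all 11 mice, by a ratio of 1.32 to 3.61 (median 2.14) in naïve and 1.72 to 3.93 (median 3.08) in withdrawn mice. The ranges of this ratio overlapped almost completely. The ratio rests on exon lengths of 7377 bases for Dnmt1 and 16642 for Dnmt3a, whose longest transcripts have 5870 and 9685 bases. With the longest transcript as length the naïve medians were 10.5 and 6.31 CPM per kb, and Dnmt1 was not above Dnmt3a in naïve mouse 3.

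The Tet dioxygenases, which oxidize methylated cytosine, had log2 fold changes of both signs, and none passed the test. Tet2 averaged 47.3 ± 7.99 CPM (SD) over the 6 naïve and 57.1 ± 15.2 CPM over the 5 withdrawn mice, and its log2 fold change was 0.27 (95% interval -0.19 to 0.73, adjusted p = 0.865 in edgeR). Without withdrawn mouse 4, the highest at 79.8 CPM, it was 0.12. Tet3 averaged 55.1 ± 28.0 CPM (SD) over the 6 naïve and 40.9 ± 9.11 CPM over the 5 withdrawn mice, a log2 fold change of -0.43 (95% interval -1.27 to 0.41, adjusted p = 0.890 in edgeR). The naïve spread of Tet3 came in part from naïve mouse 5, the library with the fewest genes detected, which had 11.2 CPM where the other naïve mice had 37.0 to 93.3 CPM. Without that mouse the log2 fold change was -0.64, with an unadjusted p of 0.0228 and an adjusted p of 0.513 in edgeR. Without naïve mouse 6, which had the highest level of 93.3 CPM, it was -0.21, so that these 2 mice set much of the estimate. The Tet3 value was -0.59 without the 3 mice with conflicting labels and -0.074 with the replicate number as a block.

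Tet1, which has a CXXC domain that binds CpG and is better known from stem cells than from mature neurons, had the lowest naïve median per kb of the 9 genes, though in withdrawn mice its median of 1.67 CPM per kb was above the 1.10 of Kdm6b. Naïve mice ranged from 5.80 to 22.3 CPM with a median of 14.3 CPM. The 5 withdrawn mice had 27.9, 10.3, 2.90, 25.8 and 25.8 CPM. Withdrawn mice were therefore at both ends, with 3 mice above every naïve mouse and 1 below every naïve mouse. The log2 fold change was 0.39 with a 95% interval of -0.73 to 1.52 (adjusted p = 0.933 in edgeR). Leaving out 1 mouse moved it to between 0.18, without withdrawn mouse 1, and 0.65, without withdrawn mouse 3. Summed per kb over the Tet genes, the level was 5.04 to 8.94 CPM per kb (median 6.99) in naïve and 5.64 to 8.41 (median 7.24) in withdrawn mice. Tet3 made up a median of 51.4% of this sum in naïve mice and 33.1% in withdrawn mice, and Tet2 37.7% and 53.3%, with overlapping ranges. Per kb, Tet2 was above Tet3 in 2 of 6 naïve and 4 of 5 withdrawn mice, an order that was looked for after the values were seen and has no test.

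Hdac2 had the smallest biological coefficient of variation of the 9 genes in edgeR, although within the withdrawn group the spread of Dnmt3a was smaller (SD 8.98% of the mean, against 11.3% for Hdac2). It averaged 181.9 ± 25.4 CPM (SD) over the 6 naïve and 161.0 ± 18.2 CPM over the 5 withdrawn mice, with ranges of 142.1 to 219.9 and 134.6 to 180.7 CPM. This coefficient, an estimate of the spread between mice of a group, was 0.196, a value reached or undercut by 0.907% of genes tested, whose median was 0.529. The log2 fold change was -0.18 with the narrowest interval of the 9, -0.48 to 0.13 (adjusted p = 0.868 in edgeR), which corresponds to 0.715-fold to 1.096-fold. Hdac4, which binds Mef2 transcription factors and is exported from the nucleus when neurons are active, averaged 86.0 ± 30.4 CPM (SD) over the 6 naïve and 79.6 ± 28.1 CPM over the 5 withdrawn mice. Its log2 fold change was -0.11 (95% interval -0.71 to 0.49, adjusted p = 0.968 in edgeR), and -0.74 without the 3 mice with conflicting labels. Its highest naïve value, 138.0 CPM, was again that of naïve mouse 5, and without this mouse the log2 fold change was 0.084. Per kb, Hdac2 exceeded Hdac4 by a ratio of 5.63 to 11.8 in naïve and 4.84 to 13.6 in withdrawn mice. This ratio rests on exon lengths of 4474 bases for Hdac2 and 15813 for Hdac4, whose longest transcripts have 3250 and 8100 bases. With the longest transcript as length the naïve medians were 55.9 and 9.87 CPM per kb, and the ratios were smaller.

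Kdm6b and Prdm2 act on histone methylation, Kdm6b as a demethylase that responds to developmental and inflammatory signals and Prdm2 as a protein with a PR domain related to the SET domain of histone methyltransferases. Prdm2 had the most positive log2 fold change of the 9, 0.54 (95% interval -0.32 to 1.41), with an unadjusted p of 0.201 and an adjusted p of 0.859 in edgeR. It ranged from 6.12 to 26.5 CPM with a median of 13.3 CPM in naïve mice, and the withdrawn mice had 26.8, 31.0, 16.3, 13.2 and 20.5 CPM. The lowest withdrawn mouse was at about the naïve median, and 2 withdrawn mice, 1 and 2, were above every naïve mouse. Prdm2 stayed above 0 under all 21 alternatives, from 0.25 to 0.91, and its unadjusted p was under 0.05 in 0 of them. The highest value came from the fit without the 3 mice with conflicting labels, which kept withdrawn mice 1 and 2 alone.

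Every member had 57 or more counts in each mouse, the lowest being the 57 of Prdm2 in naïve mouse 1. Tet1 was down to 62 counts in withdrawn mouse 3. Kdm6b was likewise low in most mice, with 60 to 282 counts in naïve and 62 to 121 in withdrawn mice. It averaged 8.55 ± 5.54 CPM (SD) over the 6 naïve and 7.73 ± 3.53 CPM over the 5 withdrawn mice, and the log2 fold change was -0.15 (95% interval -1.27 to 0.98, adjusted p = 0.979 in edgeR). Naïve mouse 5 had the highest value, 19.1 CPM, and without it the log2 fold change was 0.27. The same mouse was the highest of the naïve group for Tet1, Hdac2, Hdac4 and Kdm6b and the lowest for Tet3. Naïve mouse 1 was the lowest for Dnmt1, Dnmt3a, Tet2, Hdac4 and Prdm2. Whether the low number of genes detected in naïve mouse 5 has a part in its values was not tested.

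**Figure D3:**
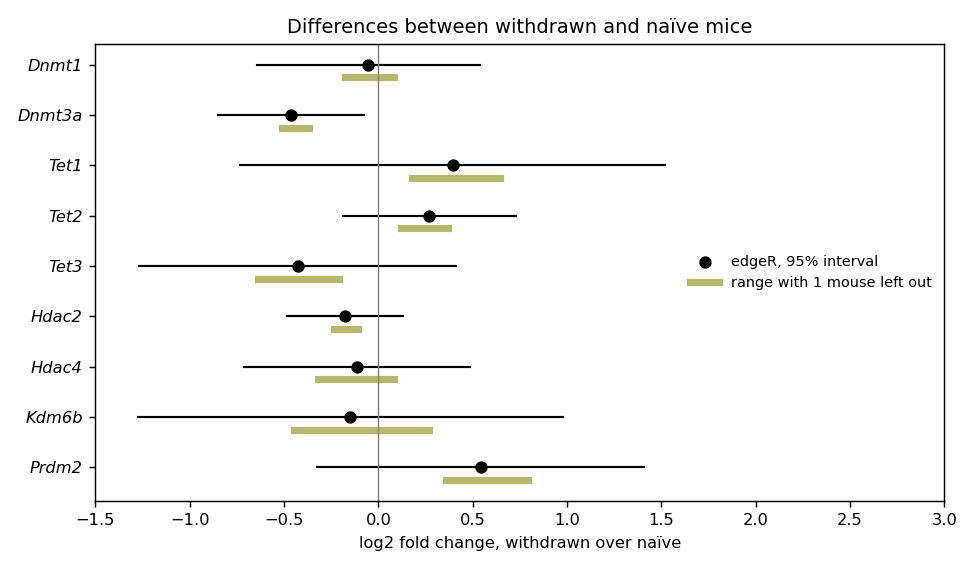
Log2 fold change (withdrawn over naïve) of the 9 genes in edgeR's quasi-likelihood fit, with its 95% interval as a black line and the range over the 11 fits that each left out 1 mouse as a thick bar. The interval of Dnmt3a, -0.85 to -0.075, is the only one that leaves out 0 without adjustment, and the bars of Dnmt1, Hdac4 and Kdm6b cross 0.

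The wider set of chromatin genes was read from the same fit, as 7 lists with 138 genes in all, of which 133 were tested. Higher values in withdrawn mice were found for 71 and lower values for 62 with a median log2 fold change of 0.033, beside 0.021 over all genes. None was called in edgeR (0.00585% of all genes), and 6 had an unadjusted p under 0.05, 3 higher and 3 lower, where 5% of all genes tested had such a p and were higher and 2.22% lower. DESeq2's Wald test called 2 of the 134 genes of the lists that had an adjusted p, Kdm5c and Prdm6, a share near the 1.66% over all genes, so that the number of calls does not set the lists apart. These were also the genes of the lists for which the lowest withdrawn mouse exceeded the highest naïve one, as for 0.69% of all genes tested.

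Kdm5c, an X-linked demethylase that removes a methyl mark of active promoters and is known from intellectual disability in humans, had the smallest p of the 20 histone demethylase genes. Naïve mice had 15.7 to 26.2 CPM with a median of 21.2 CPM, and the 5 withdrawn mice had 35.9, 47.2, 36.2, 42.8 and 36.1 CPM. The groups were separate, with means of 21.3 ± 3.72 CPM (SD) over 6 naïve and 39.6 ± 5.15 CPM over 5 withdrawn mice. The log2 fold change was 0.90 (standard error 0.22, 95% interval 0.43 to 1.37), with an adjusted p of 0.185 in edgeR's quasi-likelihood test. The two-sided exact permutation test gave p = 0.00216, the smallest that 5 mice against 6 allow, before any correction for the number of genes. In DESeq2 the log2 fold change was 0.93 (adjusted p = 0.000243, Wald test). Over the 21 alternatives the log2 fold change stayed between 0.81 and 0.96 with an unadjusted p under 0.05 in each, and the adjusted p ran from 0.000243 to 0.789, at most 0.05 only with DESeq2. Withdrawn mouse 2, whose fibroblast marker sum of 17.8 CPM was within the naïve range, had the highest Kdm5c level of all mice, and the part of fibroblast RNA in the Kdm5c difference was not tested. Over all 20 demethylases, Kdm5c included, the median log2 fold change was 0.079, and 13 were higher and 7 lower.

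Prdm6, a PRDM family repressor known from vascular smooth muscle, had 0 counts in naïve mice 1, 5 and 6 and 1, 22 and 16 counts in naïve mice 2, 3 and 4. The withdrawn mice had 405, 33, 301, 354 and 155 counts, or 29.2, 3.69, 14.1, 43.5 and 11.0 CPM. Every withdrawn mouse was above the highest naïve mouse, which had 2.06 CPM. The fitted log2 fold change was 5.32 (adjusted p = 0.159 in edgeR, and 0.000780 in DESeq2's Wald test), a value that depends on how zeros are treated. Over 20 alternatives it ran from 4.83 to 6.55 and passed the adjusted threshold in 3, with DESeq2, without the low-count filter and without withdrawn mouse 2. Apart from mice 1 and 4, the order of the withdrawn mice was that of their fibroblast marker sums, which were 1288, 17.8, 625.3, 896.2 and 231.1 CPM in withdrawn mice 1 to 5, and the part of those cells in this result was not tested. The PRDM list held 13 genes, Prdm6 included and Prdm2 left out, of which 9 passed the low-count filter, 8 of them higher and 1 lower, with a median log2 fold change of 0.54, and no tested gene of this list but Prdm6 had an unadjusted p under 0.05.

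**Figure D4:**
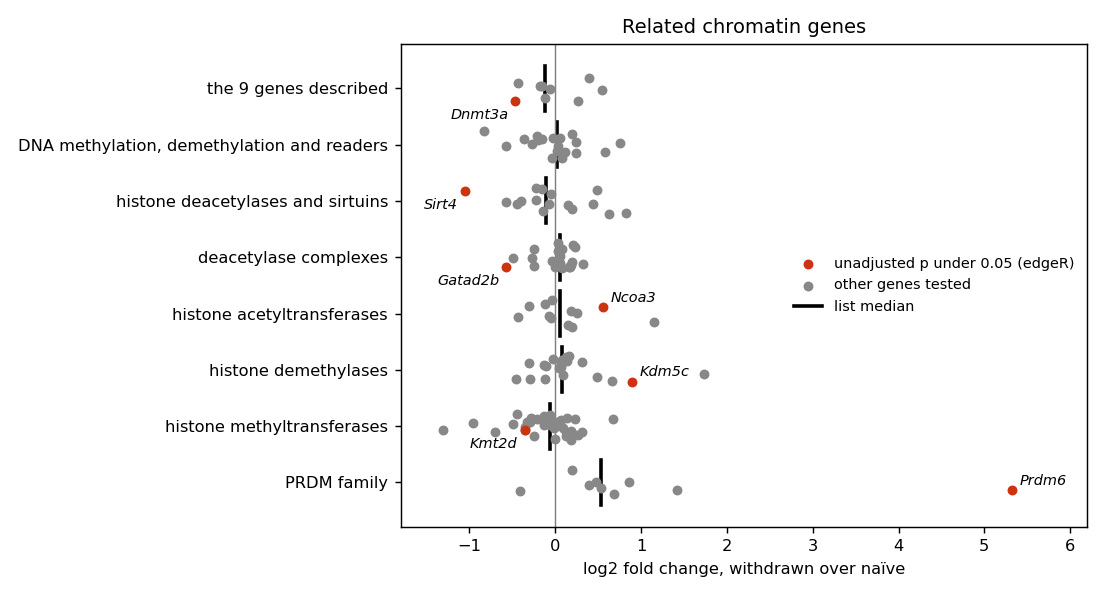
Log2 fold change (withdrawn over naïve) of each tested gene in the 9 genes described and in 7 lists of related genes, with list medians as black bars and genes with an unadjusted p under 0.05 in edgeR in red. Medians lie between -0.11 and 0.54, and the red genes are Dnmt3a, Sirt4, Gatad2b, Ncoa3, Kdm5c, Kmt2d and Prdm6, none of which was called after adjustment over 17093 genes.

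In the other lists no gene was called by either tool. Of 20 other genes of DNA methylation, its removal and its readers, 19 were tested, 10 higher and 9 lower, and none had an unadjusted p under 0.05 in edgeR. Gadd45a, a stress-induced protein linked to active DNA demethylation and named here after its values were seen, stood lowest in this list at -0.83 on the log2 scale (95% interval -1.77 to 0.11, adjusted p = 0.763 in edgeR and 0.287 in DESeq2). Its two-sided exact permutation p was 0.00433, unadjusted for the number of genes, and its groups overlapped, at 8.85 to 14.4 CPM in naïve and 2.58 to 9.34 CPM in withdrawn mice. Of the exonic bases of Gadd45a, 19.1% are shared with E230016M11Rik on the opposite strand, which had up to 95 counts in a mouse, so the Gadd45a count is uncertain. Dnmt3l, a catalytically inactive partner of Dnmt3a, was below the low-count filter. Of 16 other deacetylases and sirtuins 6 were higher and 10 lower. Sirt4, a mitochondrial sirtuin that does not act on histones, had an unadjusted p under 0.05. It averaged 21.2 ± 7.34 CPM (SD) over the 6 naïve and 10.3 ± 3.93 CPM over the 5 withdrawn mice, a log2 fold change of -1.05 (adjusted p = 0.495 in edgeR). Withdrawn mice 3 and 4, at 14.5 and 13.9 CPM, were above the lowest naïve mouse at 10.6 CPM, and the value was -1.79 when the 3 mice with conflicting labels were left out. Among 21 genes of deacetylase complexes and Mef2 partners, 14 were higher and 7 lower, and Gatad2b, a subunit of the nucleosome remodeling and deacetylase complex that holds Hdac2, stood at -0.57 on the log2 scale (adjusted p = 0.653 in edgeR), and at -0.996 without those mice.

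Histone acetyltransferases split evenly, 6 higher and 6 lower, with Ncoa3, a nuclear receptor coactivator, at a log2 fold change of 0.56 (adjusted p = 0.618 in edgeR), and at 0.38 without the 3 mice with conflicting labels. Of the exonic bases of Ncoa3, 1.95% are shared with Sulf2 on the opposite strand. Histone methyltransferases were 14 higher and 22 lower with a median of -0.055. Kmt2d, which methylates histones at enhancers, averaged 137.6 ± 25.3 CPM (SD) over the 6 naïve and 107.7 ± 14.0 CPM over the 5 withdrawn mice, a log2 fold change of -0.35 (adjusted p = 0.674 in edgeR). For Gatad2b, Ncoa3 and Kmt2d, the unadjusted p was under 0.05 in 11, 10 and 10 of the 21 alternatives.

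**Figure D5:**
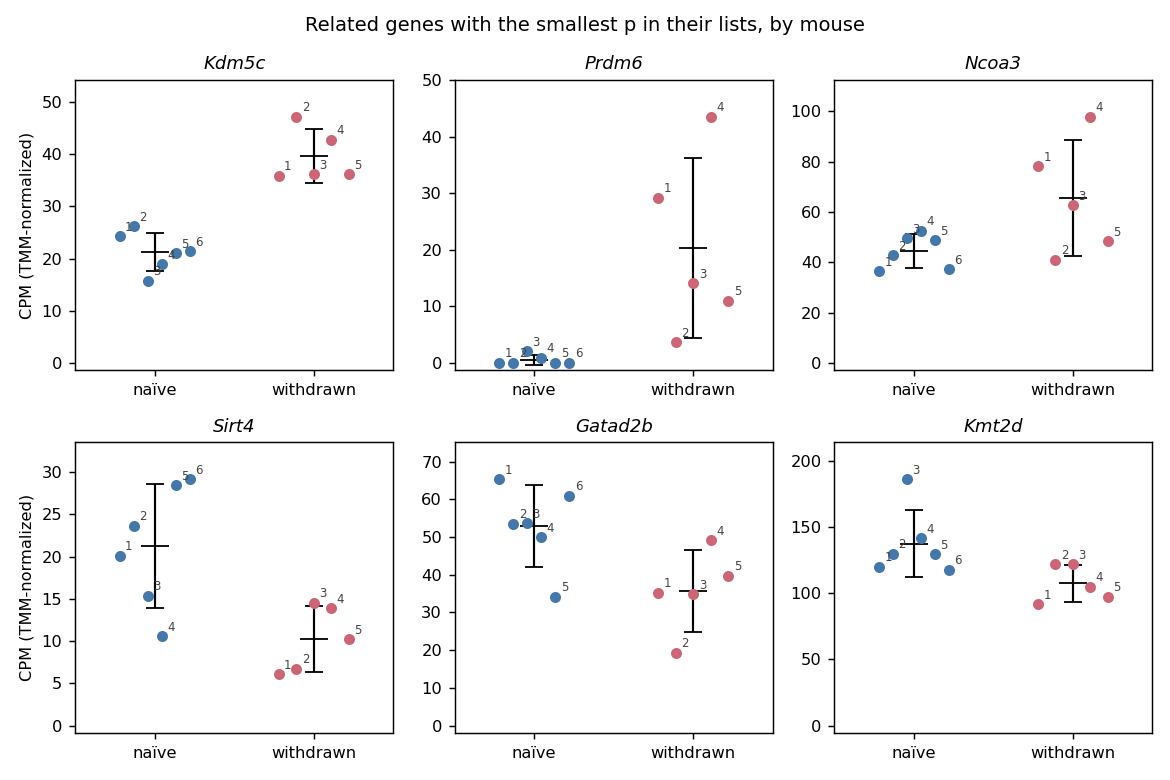
TMM-normalized CPM of the related genes with the smallest p in their lists, with a numbered point per mouse and the mean ± SD of each group in black (naïve n = 6, withdrawn n = 5). The groups are separate for Kdm5c and Prdm6 and overlap for Ncoa3, Sirt4, Gatad2b and Kmt2d.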

How the data were processed

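The authors trimmed reads with cutadapt, mapped them with STAR to GRCm38 (Ensembl) and counted them per gene with HTSeq, from cDNA amplified from 160 pg of RNA per mouse. The deposited values are raw counts per gene, without normalization or pooling. The 5 tallies of unassigned reads at the end of each file were left out of library sizes. Symbols, exons and coordinates came from GENCODE M21 on the same assembly, and promoter windows from RefSeq on GRCm38.p6.

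Genes were filtered with filterByExpr (minimum count 10, minimum total 15), normalized with TMM and tested with edgeR 4.0.16 (glmQLFTest, Benjamini-Hochberg over 17093 genes) in R 4.3.3. The standard error is the log2 fold change over the square root of F. Alternatives were DESeq2 1.42.0, limma 3.58.1 (voom with quality weights), other normalizations and filters, covariates, a replicate block and mice left out. Single values were tested by permutation of log2 CPM (prior count 2). No library pair agreed within sampling noise (chi-square per degree of freedom at least 25.6 within a group and at least 29.0 across the groups). The edgeR script was tested on simulated data. The genes, the related lists and the markers were chosen with earlier results of these data known. All 9 genes are named, with the related genes that had, in each list and direction, the 2 smallest unadjusted p under 0.05, and Crhr1, Slc17a7 and Gad2 as a check of the sort. Gadd45a, named after its values were seen, Dnmt3l and the neuronal marker Snap25 fall outside this rule. P-values weigh the difference between the groups against the spread between mice, in which library preparation also has a part.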

Additional observations from a re-analysis of the deposited data

How the results depend on the processing

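Of 189 log2 fold changes of the 9 genes under 21 alternatives, 175 kept their sign, 14 did not, and 0 passed the thresholds. With the share of reads outside exons as a covariate, Dnmt1 was 0.040, Hdac4 0.036 and Tet2 0.12, and the median of the 9 genes was 0.036 with 5 above 0. With voom, Hdac4 was 0.065, Tet1 -0.032 and Tet2 0.085. With genes detected as a covariate Kdm6b was 0.058, and without the 3 mice with conflicting labels it was 0.067. Over the fits without 1 mouse, Dnmt1 ran from -0.18 to 0.085, Hdac4 from -0.32 to 0.084, Kdm6b from -0.45 to 0.27, Tet1 from 0.18 to 0.65, Tet2 from 0.12 to 0.37 and the median of the 9 genes from -0.19 to 0.084, above 0 without naïve mouse 5 (0.084) and without withdrawn mouse 2 (0.013). The cause was not tested. The number of genes called, 1 in the reported fit, was 362 with DESeq2, 137 without the low-count filter, 30 with at least 10 counts in every mouse, 26 with genes detected as a covariate, and 0 with the share outside exons as a covariate and without the 3 mice. It ran from 0 to 193 over the fits without 1 mouse, the highest without withdrawn mouse 2. With the longest transcript as length, the naïve medians per kb were 55.9 for Hdac2, 10.5 for Dnmt1, 9.87 for Hdac4, 6.31 for Dnmt3a, 5.60 for Tet3 and 5.24 for Tet2. Same-numbered mice of the groups were treated as different animals, and the conflicting labels leave this uncertain for withdrawn mice 3, 4 and 5. Deviations of same-numbered mice correlated between -0.20 and 0.18, and those of other pairs across the groups between -0.37 and 0.37. With the replicate number as a block 0 genes were called, Tet1 was -0.085 and Tet3 was -0.074.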
